A study of Mus musculus with 6 samples.

Results

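Muscle fibres contract when calcium leaves an internal store, the sarcoplasmic reticulum, and relax when it is pumped back. The genes described here are 10 of that cycle, chosen by name as genes of muscle calcium release and reuptake: Atp2a1, Atp2a2, Sln, Pvalb, Ryr1, Casq1, Casq2, Jph1, Trdn and Srl. All 10 were found, under exactly these symbols, among the 34361 genes of the deposited table. They were measured in RNA from mouse femur, in 3 libraries from mice given tamoxifen to induce a knockout and 3 from control mice injected with corn oil. The design text gives the deleted gene as Fshr, which encodes the receptor of follicle-stimulating hormone, whereas the treatment label names FGF21, so the first group is called knockout-labelled. The driver of the recombination, the age of the animals and any allele that both groups carry are not stated by the labels. Tamoxifen was given only to the knockout-labelled mice and corn oil is named only for the controls, so drug and knockout cannot be told apart.

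As background, an action potential is sensed in the transverse tubule by a voltage-gated channel, which opens the ryanodine receptor (Ryr1) in the facing store membrane. Junctophilins such as Jph1 hold the membranes together, triadin (Trdn) ties the receptor to the store proteins, and calsequestrins (Casq1, Casq2) bind calcium inside the store. Calcium is returned by SERCA pumps (Atp2a1, Atp2a2), which the small membrane protein sarcolipin (Sln) inhibits, while parvalbumin (Pvalb) takes up calcium in the cytosol. Several of these proteins come in fast and slow fibre forms: Atp2a1, Casq1 and Pvalb are known from fast fibres, Atp2a2 and Casq2 from slow fibres and heart.

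Gene counts, which the authors estimated, summed to 65.8 to 73.5 M per library. Fshr and Fgf21 had 0 counts in all 6 libraries, so neither label could be checked. Muscle and bone transcripts moved apart between the groups. The 15 genes of a muscle list used by both fibre types held 5.28% to 5.32% of counts in knockout-labelled libraries and 1.35% to 1.38% in controls, and 15 of 15 were higher. A list of 8 osteoblast and bone matrix genes held 1.93% to 1.95% and 9.83% to 9.95%, and the 7 genes of an osteoclast list held 0.151% to 0.155% and 1.12%, with all 15 of these genes lower. Across all genes tested, 28.7% were called higher and 28.8% lower, by the test named in the next paragraph. None of the 8 or the 7 was at 0. The muscle and bone shares of counts moved with every result below. Their part in the results was not tested, except that each member is also set against other muscle genes further on. In such bulk tissue, fewer cells of a type and less RNA per cell cannot be told apart.

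All 10 genes were higher in the knockout-labelled femora, and in each of them every knockout-labelled library lay above every control library. Across all genes 28.7% were called higher and 28.8% lower (57.5% in either direction) and 31.9% had the knockout-labelled libraries wholly above, out of 20388 genes tested with edgeR's quasi-likelihood test at a Benjamini-Hochberg adjusted p under 0.05. The median log2 fold change was 2.31 over the 10 genes and -0.02 over all genes tested. Together the 10 held 2.52% to 2.54% of counts in knockout-labelled libraries and 0.549% to 0.556% in controls. They did not rise alike: Pvalb and Casq1 rose 9.86-fold and 9.02-fold, Atp2a2 and Sln 2.13-fold and 1.55-fold, with the direction of Sln depending on the scaling as given below. Within a group the libraries differed little, with a coefficient of variation of 0.367% to 3.49% per gene. The design text speaks of 3 mice in each group, but the libraries of a group were very alike. The median coefficient of variation over genes above 10 FPKM was 2.90% in both groups. Pairs of libraries differed by 1.505 to 1.603 times counting noise (median chi-square over that expected, genes with at least 10 read pairs). With at least 200 read pairs the range was 1.565 to 1.715. Both ranges assume that each read pair adds 4 counts. Whether this spread is that between animals or only technical was not tested, and the SE and p-values measure no more than that spread.

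**Figure D1:**
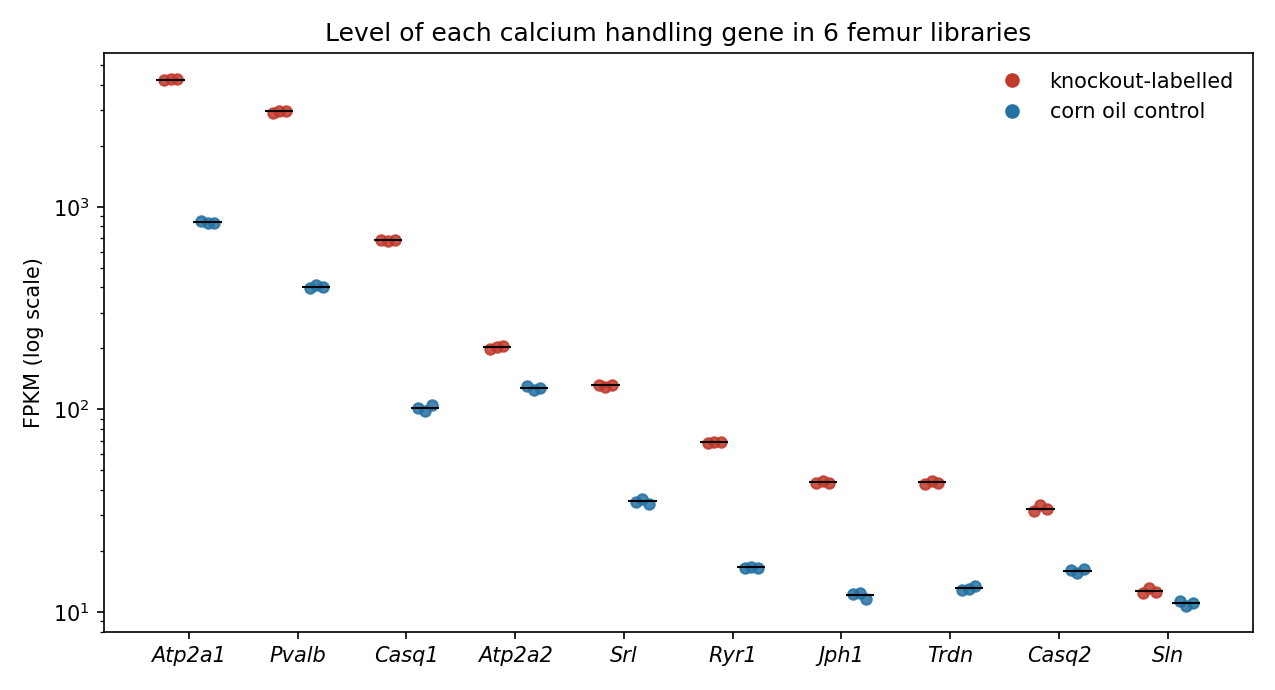
FPKM (fragments per kilobase, scaled to depth, log axis) of the 10 calcium release and reuptake genes, 1 point per library, with knockout-labelled libraries left of corn oil controls. In each gene the 3 knockout-labelled points lie above the 3 control points, from 4217 or more against 854 or less for Atp2a1 to 12.4 or more against 11.3 or less for Sln, whose direction turns with TPM scaling.

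Of the reuptake pumps, Atp2a1 was by far the more abundant. Atp2a1 (ENSMUSG00000030730, chromosome 7, 126045030 to 126062280, minus strand, GRCm39), which encodes SERCA1, the pump of fast fibres, had 4217, 4254 and 4251 FPKM in knockout-labelled libraries, against 854, 835 and 831 FPKM in controls. All knockout-labelled values were about the same height and none came near a control value. The log2 fold change was 2.76 (SE 0.0088, edgeR adjusted p = 6.4e-19), on counts scaled by TMM, which centres the data on most genes. FPKM values are given as deposited, with no TMM scaling, and their ratio for Atp2a1 was 5.05, against a TMM-scaled fold of 6.78. Rabep2 overlaps Atp2a1 on the other strand, but reached at most 22.9 FPKM in any library.

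Atp2a2 (ENSMUSG00000029467, chromosome 5, 122591576 to 122640237, minus strand) encodes SERCA2, the pump of slow fibres, heart and, in a longer form, most other cells. It had 199.5, 203 and 206 FPKM in knockout-labelled libraries, against 131, 125 and 127 FPKM in controls. The groups stood apart, but by much less than for Atp2a1, with a log2 fold change of 1.09 (SE 0.020, edgeR adjusted p = 1.7e-13).

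The pump genes end in different ways, and the alternative ends are what distinguishes SERCA2a from SERCA2b and SERCA1a from SERCA1b. The spliced coding ends below are from the GENCODE M21 annotation on GRCm38, 5′ to 3′ on the minus strand, with bases shared by both transcripts of a gene in lower case and the bases of each end, stop codon included, in capitals. They are shown because transcripts described further on carry these ends, though the values given there are for whole transcripts.
Atp2a2, short end (ENSMUST00000177974, chr5:122454291-122457332): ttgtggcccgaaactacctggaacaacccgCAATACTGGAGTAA
Atp2a2, long end (ENSMUST00000031423, chr5:122457151-122457332): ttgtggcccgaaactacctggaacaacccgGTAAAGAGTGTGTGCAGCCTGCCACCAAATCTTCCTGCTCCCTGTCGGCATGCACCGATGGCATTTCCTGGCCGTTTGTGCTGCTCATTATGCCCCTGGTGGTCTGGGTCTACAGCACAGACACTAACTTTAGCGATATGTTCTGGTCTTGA
Atp2a1, short end (ENSMUST00000032974, chr7:126446582-126446900): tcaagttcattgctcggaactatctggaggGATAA
Atp2a1, longer end (ENSMUST00000146973, chr7:126446101-126446900): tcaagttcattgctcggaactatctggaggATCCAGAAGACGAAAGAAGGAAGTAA

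Sln (ENSMUSG00000042045, chromosome 9, 53757448 to 53761844, plus strand) had 12.4, 13.2 and 12.6 FPKM in knockout-labelled libraries, against 11.3, 10.8 and 11.1 FPKM in controls. These were the closest groups among the 10 genes, although they did not overlap. The log2 fold change was 0.63 (SE 0.030, edgeR adjusted p = 6.8e-06) with TMM and 0.21 (adjusted p = 0.019) with library totals, and with TPM values it turned to -0.14 (limma adjusted p = 0.011). Its lowest library held 1093 counts, about 273 read pairs if each pair adds 4 counts, the fewest of the 10 genes.

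Sarcolipin is short enough to show whole. Its coding sequence of 31 codons and a stop (GENCODE M21, GRCm38, plus strand, start and stop codons in capitals) is shown because Sln stood apart from the other members in fold. The transcript table lists 1 transcript for Sln.
Sln (ENSMUST00000048485, chr9:53853473-53853568): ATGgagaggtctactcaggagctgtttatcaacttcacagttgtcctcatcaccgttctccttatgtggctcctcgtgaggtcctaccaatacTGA

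The cytosolic buffer Pvalb (ENSMUSG00000005716, chromosome 15, 78075314 to 78090600, minus strand) had 2914, 2970 and 2984 FPKM in knockout-labelled libraries, against 395, 413 and 400.4 FPKM in controls. It lay second in abundance in both groups and had the highest fold of the 10, a log2 fold change of 3.30 (SE 0.022, edgeR adjusted p = 1.7e-17). Of all genes tested, 99.4% had a smaller log2 fold change than Pvalb, and 78.3% a smaller one than Sln.

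Genes of the release complex rose by similar amounts. Ryr1 (ENSMUSG00000030592, chromosome 7, 28702769 to 28824604, minus strand), the calcium release channel, had 68.6, 69.3 and 68.8 FPKM in knockout-labelled libraries, against 16.6, 16.7 and 16.5 FPKM in controls (log2 fold change 2.48, SE 0.0067, edgeR adjusted p = 3.3e-17). The values within each group differed by less than 1 FPKM. Jph1 (ENSMUSG00000042686, chromosome 1, 17034784 to 17168113, minus strand), a junctophilin of skeletal muscle, had 43.5, 44.5 and 43.5 FPKM in knockout-labelled libraries, against 12.2, 12.4 and 11.6 FPKM in controls (log2 fold change 2.28, SE 0.030). Trdn (ENSMUSG00000019787, chromosome 10, 32956550 to 33352705, plus strand), which encodes triadin, had 43.1, 44.6 and 43.2 FPKM in knockout-labelled libraries, against 12.9, 13.02 and 13.4 FPKM in controls (log2 fold change 2.16, SE 0.025). Jph1 and Trdn did not separate from each other in knockout-labelled libraries, while Trdn lay above Jph1 in every control library.

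Inside the store, Casq1 (ENSMUSG00000007122, chromosome 1, 172037461 to 172047435, minus strand), the skeletal muscle calsequestrin, had 682, 679 and 689 FPKM in knockout-labelled libraries, against 102, 98.4 and 105 FPKM in controls. This was among the highest folds, with a log2 fold change of 3.17 (SE 0.026, edgeR adjusted p = 1.1e-16). Casq2 (ENSMUSG00000027861, chromosome 3, 101993731 to 102053830, plus strand), the calsequestrin of heart and slow fibres, had 31.4, 33.6 and 32.1 FPKM in knockout-labelled libraries, against 16.1, 15.7 and 16.3 FPKM in controls (log2 fold change 1.44, SE 0.032, edgeR adjusted p = 8.1e-12). Srl (ENSMUSG00000022519, chromosome 16, 4298080 to 4340939, minus strand), which encodes the store glycoprotein sarcalumenin, had 132.4, 129.5 and 132.5 FPKM in knockout-labelled libraries, against 35.0, 36.1 and 34.3 FPKM in controls (log2 fold change 2.33, SE 0.024). All 3 store genes were separated between groups, with Casq2 the least.

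The order of levels per kilobase differed between the groups at Casq1 and Atp2a2, and at Casq2, Jph1 and Trdn. In knockout-labelled libraries it ran Atp2a1, Pvalb, Casq1, Atp2a2, Srl, Ryr1, Jph1, Trdn, Casq2 and Sln, and every neighbouring pair other than Jph1 and Trdn was separated in all 3 libraries. Controls had the order Atp2a1, Pvalb, Atp2a2, Casq1, Srl, Ryr1, Casq2, Trdn, Jph1 and Sln, with every pair of neighbours separated in all 3 libraries. Casq1 thus averaged 683 FPKM beside 203 FPKM for Atp2a2 in knockout-labelled libraries, and 102 FPKM beside 128 FPKM in controls. Casq2 averaged 32.4 FPKM, below Jph1 (43.9) and Trdn (43.6), in knockout-labelled libraries, and 16.03 FPKM, above Trdn (13.1) and Jph1 (12.1), in controls.

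Fast forms were set against slow forms within each library, where the ratio of FPKM needs no scaling between libraries. Atp2a1 over Atp2a2 was 21.1, 21.0 and 20.7 in knockout-labelled libraries and 6.52, 6.69 and 6.53 in controls. Casq1 over Casq2 was 21.7, 20.2 and 21.4 in knockout-labelled libraries and 6.33, 6.28 and 6.42 in controls. Both pairs thus stood near the same ratio in each group, and neither overlapped between groups. The log2 ratio differed by 1.67 (SE 0.015) for the pumps and 1.73 (SE 0.033) for the calsequestrins, each with a two-sided exact permutation p = 0.1, the smallest that 3 against 3 allows. Atp2a1 over Sln, a pair added after the values were seen and given with no test, was 340.2, 323 and 338 in knockout-labelled libraries and 75.8, 77.6 and 75.2 in controls.

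**Figure D2:**
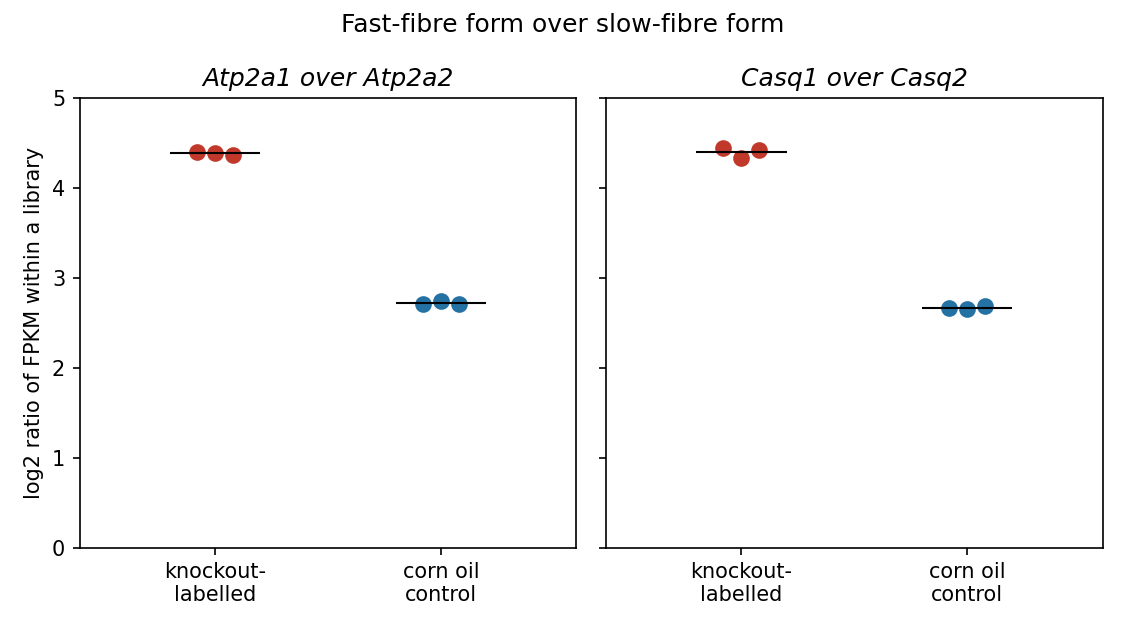
Log2 of the FPKM ratio of Atp2a1 to Atp2a2 and of Casq1 to Casq2, 1 point per library with a line at the group mean, knockout-labelled libraries left of controls. The points lie between 4.34 and 4.44 in knockout-labelled libraries and between 2.65 and 2.74 in controls, and no points of the groups overlap.

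Sarcomere pairs, added after the calcium gene values were seen, were higher in the knockout-labelled libraries as well. On the log2 scale the ratio of Tnni2 to Tnni1, the fast and slow troponin I genes, differed by 1.57, that of the troponin T genes Tnnt3 to Tnnt1 by 1.54, and that of the troponin C genes Tnnc2 to Tnnc1 by 1.33. Myh4 over Myh7, a myosin of the fastest fibres over the slow myosin, differed by 2.42. The fast sarcomere list had 9 of 9 genes higher (median log2 fold change 2.79). The slow sarcomere list had 9 of 9 higher as well (median 1.25), though Tpm3 turned lower with TPM. Beside these counts, 28.7% of all genes tested were called higher and 28.8% lower. The fast list held 4.82% to 4.89% of counts in knockout-labelled libraries and 0.808% to 0.813% in controls, the slow list 0.624% to 0.628% and 0.366% to 0.369%.

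To set the members against muscle itself, each was divided, within each library, by the geometric mean FPKM of the 15 muscle genes of both fibre types. On this measure Pvalb was higher by 1.14 (SE 0.031) and Casq1 by 1.01 (SE 0.024) on the log2 scale in knockout-labelled libraries, and Atp2a1 by 0.60 (SE 0.0084). Ryr1 was higher by 0.32 (SE 0.014), Srl by 0.17 (SE 0.030) and Jph1 by 0.12 (SE 0.033). Trdn did not differ beyond its spread (-0.0022, SE 0.028, exact permutation p = 1). The slow forms and sarcolipin had differences below 0: Casq2 had -0.72 (SE 0.032), Atp2a2 -1.07 (SE 0.018) and Sln -1.53 (SE 0.029). For the 9 genes other than Trdn the groups did not overlap and the two-sided exact permutation p was 0.1, the smallest possible.

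The choice of muscle genes moves these differences. On the same measure the 15 reference genes themselves ran from -0.42 to 0.76 (median -0.11), the 9 fast sarcomere genes from -0.19 to 1.48 (median 0.63) and the 9 slow ones from -1.54 to -0.57 (median -0.91). Ryr1, Srl, Jph1 and Trdn lay inside the range of the reference genes, as did Atp2a1. Pvalb and Casq1 lay above it and Casq2, Atp2a2 and Sln below. The top of the range was set by Ckm (0.76) and Eno3 (0.602). The next reference gene was Acta1 (0.22), and Atp2a1 and Ryr1 lay above it. Divided by the fast sarcomere list, Atp2a1 (-0.11), Ryr1 (-0.39), Srl (-0.54) and Jph1 (-0.58) turned negative. With the slow list as divisor, Casq2 (0.19) and Trdn (0.91) were positive.

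**Figure D3:**
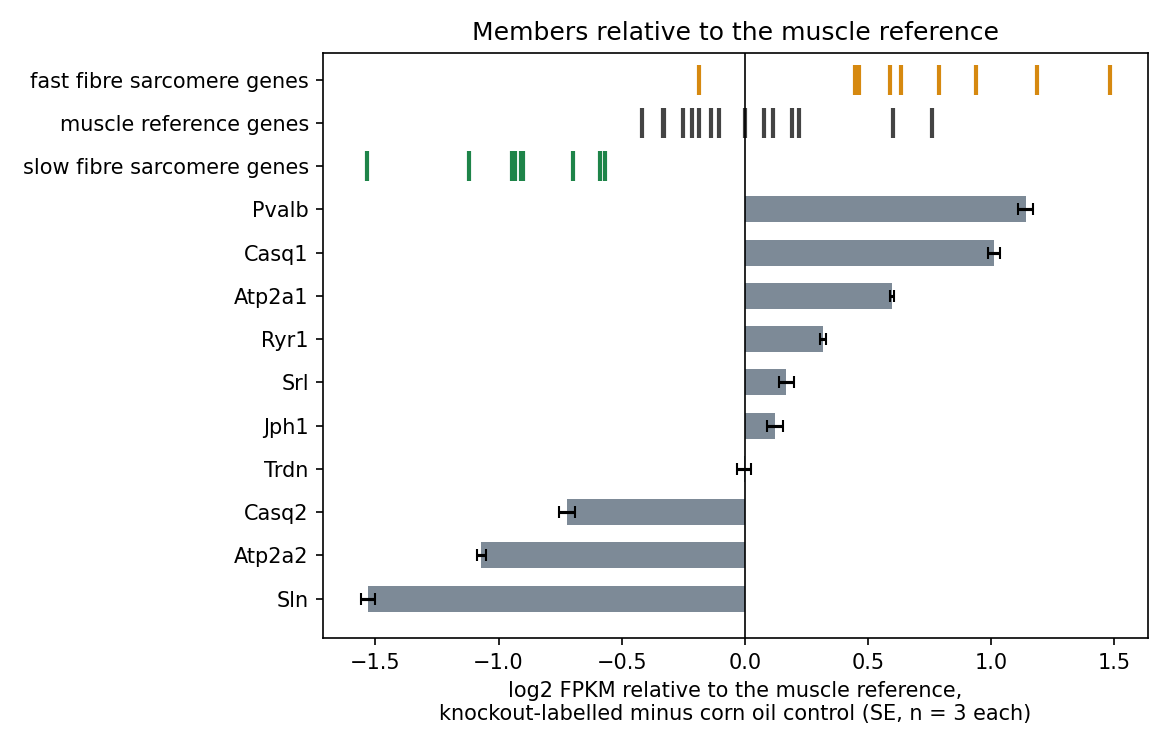
Difference between knockout-labelled and control libraries in the log2 ratio of each gene to the 15-gene muscle reference, with its SE, beside the fast, reference and slow sarcomere genes on the same measure. Pvalb (1.14) and Casq1 (1.01) lie above the range of the reference genes, and Casq2 (-0.72), Atp2a2 (-1.07) and Sln (-1.53) below it; the signs of Atp2a1, Ryr1, Srl, Jph1, Casq2 and Trdn turn with the sarcomere list used as divisor.

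The transcript table splits 10 genes into 37 transcripts, of which 21 were tested: 15 passed as higher, 0 as lower, and 6 missed the threshold (edgeR). Across all 47621 transcripts tested, 10.2% were called higher, 7.93% lower and 18.1% in either direction. Of the 37, 14 transcripts held at least 5% of the FPKM summed over their gene's transcripts in some library, and 10 of those were higher. Shares of a gene below are parts of that sum, which differs from the FPKM given for the gene itself.

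Of the Atp2a2 ends shown above, the short one (ENSMUST00000177974), of the SERCA2a type that muscle uses, codes for 998 amino acids. It had 190.5, 232 and 198 FPKM in knockout-labelled libraries, against 114, 108 and 60.6 FPKM in controls. The groups did not overlap, though 1 control lay well below the others. Its log2 fold change was 1.58 (SE 0.30, edgeR adjusted p = 0.010). The long-ended transcript (ENSMUST00000031423), of the SERCA2b type that most cells use, codes for 1044 amino acids. It had 27.5, 52.9 and 19.8 FPKM in knockout-labelled libraries, against 64.4, 60.4 and 11.6 FPKM in controls. These groups overlapped, and the log2 fold change was 0.0052 (SE 0.91, edgeR adjusted p = 0.997). A further Atp2a2 transcript (ENSMUST00000179939), annotated as a target of nonsense-mediated decay, carries the same coding sequence as the long-ended one. It had 58.3, 12.6 and 65.8 FPKM in knockout-labelled libraries, against 9.28, 10.1 and 84.7 FPKM in controls, with edgeR adjusted p = 0.68. Within each group, the library with least of the long-ended transcript had most of this one. The short-ended transcript was lowest (60.6 FPKM) in the control with most of the decay-annotated one (84.7). It was highest (232 FPKM) in the knockout-labelled library with least of that one (12.6). The FPKM of the gene itself was 131, 125 and 127 in controls. The split among these transcripts is therefore uncertain, and the fold, p-value and shares of the short-ended one rest on it. The short-ended transcript made up 68.9%, 78.0% and 69.8% of the summed FPKM of Atp2a2 transcripts in knockout-labelled libraries. In controls it made up 60.8%, 60.4% and 38.6%.

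Atp2a1 was nearly all of 1 form. The transcript with the short end of adult SERCA1a (ENSMUST00000032974) held at least 99.96% of the summed transcript FPKM in every library. It rose by 2.79 on the log2 scale. The other (ENSMUST00000146973), annotated only as a fragment with the longer end of the SERCA1b type known from neonatal muscle, had 0.431, 0.693 and 0.346 FPKM in knockout-labelled libraries, against 0.179, 0.241 and 0.358 FPKM in controls. It did not pass (log2 fold change 1.35, edgeR adjusted p = 0.11) and, being under 5% of its gene, was named after its values were seen.

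The single Sln transcript (ENSMUST00000048485) rose by 0.66 on the log2 scale (SE 0.029, edgeR adjusted p = 0.0041), and with library totals it did not pass (0.21, adjusted p = 0.14).

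Srl has a long and a short form, and an exon of 1311 bases is found in the long form only. The long form (ENSMUST00000023161, 910 codons) had 69.9, 130.3 and 72.3 FPKM in knockout-labelled libraries, against 31.2, 18.5 and 35.0 FPKM in controls. It rose by 2.13 (SE 0.40, edgeR adjusted p = 0.012), a call missed without control replicate 1 (adjusted p = 0.051). The short form (ENSMUST00000090500, 472 codons) had 96.1, 10.2 and 93.0 FPKM in knockout-labelled libraries, against 8.20, 26.9 and 1.97 FPKM in controls, and did not pass (log2 fold change 2.88, SE 1.53, edgeR adjusted p = 0.19). Its groups overlapped, as 1 knockout-labelled library lay among the controls.

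**Figure D4:**
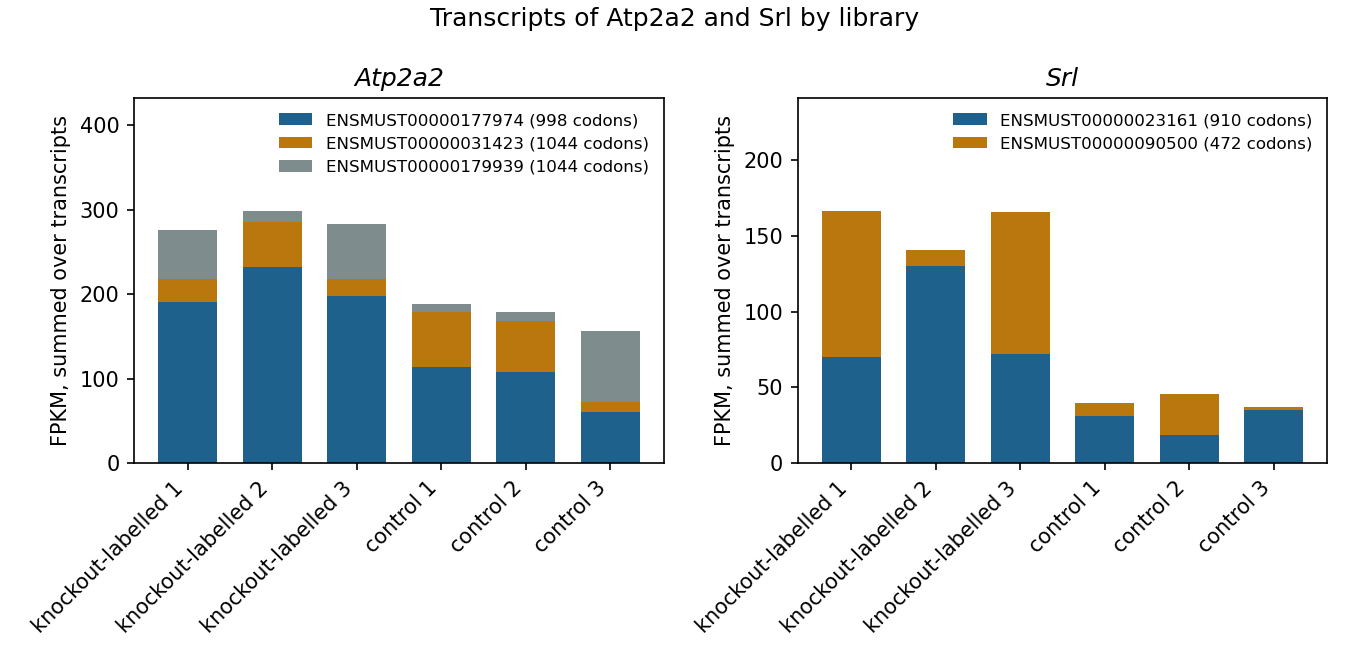
FPKM of the leading transcripts of Atp2a2 (3) and Srl (2), stacked in 1 bar per library, knockout-labelled libraries left of controls. The short-ended Atp2a2 transcript ENSMUST00000177974 reaches 190.5 to 232 FPKM in knockout-labelled libraries and 60.6 to 114 FPKM in controls. The shares of the transcripts of each gene shift between libraries of a group, so their split is uncertain.

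Pvalb has 2 annotated starts with the same coding sequence of 110 codons. The transcript ENSMUST00000120592, whose start lies 2163 bases upstream, held 98.6% to 99.9% of the summed transcript FPKM and rose by 3.32 on the log2 scale. The downstream transcript (ENSMUST00000005860) had 26.7, 44.7 and 4.74 FPKM in knockout-labelled libraries, against 1.63, 1.28 and 1.495 FPKM in controls, and rose by 4.55 (SE 0.98, edgeR adjusted p = 0.018). Its knockout-labelled libraries differed widely among themselves, and it too was named after its values were seen. The leading transcripts of the other genes rose by 3.20 for Casq1 (ENSMUST00000003554), 1.47 for Casq2 (ENSMUST00000029454), 2.54 for Ryr1 (ENSMUST00000179893), 2.19 for Trdn (ENSMUST00000095762) and 2.31 for Jph1 (ENSMUST00000038382). A further Ryr1 transcript (ENSMUST00000214374) reached 5.59% of its gene in 1 control library and was not tested.

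Promoter sequence was at hand for 5 of the 10 genes in the RefSeq table (GRCm38): Atp2a1, Pvalb, Ryr1, Casq1 and Casq2. The 250 bases before each start are shown for the calsequestrin pair, Atp2a1 and both Pvalb starts, which differed in fold. Capitals mark the E-box (CANNTG), the core bound by MyoD family factors, and the MEF2 motif, searched on both strands together with the CArG box and the MCAT motif (CATTCC).
Casq1 (chr1:172219896-172220145, minus strand): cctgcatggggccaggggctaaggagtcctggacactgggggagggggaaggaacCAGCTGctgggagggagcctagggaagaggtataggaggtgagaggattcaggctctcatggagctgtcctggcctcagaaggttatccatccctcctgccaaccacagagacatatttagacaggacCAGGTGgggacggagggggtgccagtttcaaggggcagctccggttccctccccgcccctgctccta
Casq2 (chr3:102086165-102086414, plus strand): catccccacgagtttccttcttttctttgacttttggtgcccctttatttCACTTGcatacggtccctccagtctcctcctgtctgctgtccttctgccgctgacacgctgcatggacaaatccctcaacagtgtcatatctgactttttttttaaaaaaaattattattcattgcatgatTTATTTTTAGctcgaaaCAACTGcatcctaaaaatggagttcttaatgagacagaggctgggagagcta
Atp2a1 (chr7:126463074-126463323, minus strand): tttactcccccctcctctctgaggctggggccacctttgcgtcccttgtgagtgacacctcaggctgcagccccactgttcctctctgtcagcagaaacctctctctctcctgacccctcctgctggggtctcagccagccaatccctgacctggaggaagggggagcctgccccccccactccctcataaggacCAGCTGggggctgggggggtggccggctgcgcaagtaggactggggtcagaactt
Pvalb, upstream start (chr15:78206401-78206650, minus strand): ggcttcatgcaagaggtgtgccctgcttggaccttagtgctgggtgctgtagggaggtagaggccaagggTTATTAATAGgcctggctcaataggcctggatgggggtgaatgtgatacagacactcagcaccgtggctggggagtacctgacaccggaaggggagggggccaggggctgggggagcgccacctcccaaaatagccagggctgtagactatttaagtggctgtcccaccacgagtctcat
Pvalb, downstream start (chr15:78204238-78204487, minus strand): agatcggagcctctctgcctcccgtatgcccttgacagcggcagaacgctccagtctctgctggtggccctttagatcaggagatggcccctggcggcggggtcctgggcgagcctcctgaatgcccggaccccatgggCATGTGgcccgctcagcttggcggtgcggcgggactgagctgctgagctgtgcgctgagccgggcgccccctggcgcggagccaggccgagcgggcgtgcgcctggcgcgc

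Casq1 held E-boxes at -195 to -190 and -67 to -62 from its start, and Casq2 at -200 to -195 and -52 to -47. Casq2 also held a MEF2 motif at -69 to -60. Atp2a1 had 1 E-box at -55 to -50, the upstream Pvalb start a MEF2 motif at -180 to -171, and the downstream Pvalb start an E-box at -111 to -106. None of the 4 motifs was found in the same window of Ryr1. Of 32851 promoters of this length, 66.2% held an E-box, 2.92% a MEF2 motif, 1.47% a CArG box and 12.6% MCAT. No match overlapped another, and the matches describe the letters only.

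Other calcium handling genes were counted in 4 lists with 55 tested genes. Of these, 37 were higher, 10 lower and 8 missed the threshold, at a median log2 fold change of 0.60. Over all genes tested, 28.7% were called higher and 28.8% lower, at a median of -0.02. Of the 37, 25 kept their sign under every other scaling, test and filter tried (8 to 12 per gene, leaving out libraries not counted), as did the 10 lower genes. The lists differed by role, with medians of 2.01 in the triad list and -0.14 in that of non-skeletal store forms.

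The voltage sensor and triad list had 16 of 16 genes past the threshold as higher with TMM (median log2 fold change 2.01). Under 12 other scalings, tests and filters, Fkbp1a was called lower in 6, Dysf in 5 and Mtm1 in 1. Cacna1s, the voltage-sensing channel subunit that opens Ryr1, had 78.9 ± 1.10 FPKM in knockout-labelled libraries and 21.5 ± 0.443 FPKM in controls (SD, n = 3 each; log2 fold change 2.30). Jph2, the other junctophilin of striated muscle, rose by 2.56, Tmem38a, a potassium channel of the store membrane, by 2.28 and Jsrp1, a junctional store protein, by 2.36. With TMM, Dysf, a membrane repair protein, had 0.22, the phosphatase gene Mtm1 0.42 and Fkbp1a, whose product binds Ryr1, 0.13.

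Regulators of the store and the pumps were higher in 11 of 12 tested genes, with a median of 1.62. Hrc, a histidine-rich calcium-binding protein of the store, had 178 ± 2.79 FPKM in knockout-labelled libraries and 47.8 ± 1.08 FPKM in controls (SD, n = 3 each; log2 fold change 2.32). Camk2a, Camk2g and Camk2b, subunits of the calcium- and calmodulin-dependent kinase, rose by 2.71, 1.38 and 1.87. The lower gene was Calm2 (-0.28), which encodes calmodulin. Other small pump regulators were chosen after their values were seen: Pln (phospholamban) had 2.56 ± 0.250 FPKM in knockout-labelled libraries and 0.518 ± 0.112 FPKM in controls (SD, n = 3 each; log2 fold change 2.72), and Mrln (myoregulin) rose by 2.40. On the same log2 scale Sln had 0.63, so the pump inhibitors did not share 1 fold.

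Calcium entry and extrusion genes were mixed, with 9 of 15 higher, 3 lower and 3 not past the threshold, and a median log2 fold change of 0.35. Stim1, the store sensor of calcium entry, rose by 1.42, and Atp2b3, a plasma membrane pump, by 2.78. Orai1, the entry channel, had 0.63, with a sign that turned with TPM. Its relatives Orai2 (-1.20) and Orai3 (-0.25) and the plasma membrane pump gene Atp2b4 (-0.38) were lower.

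Store genes known mainly from other tissues were mostly lower or missed the threshold. This list of 12 genes had 1 higher and 6 lower, and 5 missed the threshold, with a median of -0.14. Beside it, 28.7% of all genes tested were called higher and 28.8% lower, with a median of -0.02. The higher gene was Tmem38b (0.99), a channel found in many tissues. Calr (-0.41) and Canx (-0.28), calcium-binding chaperones of the endoplasmic reticulum, and Itpr3 (-0.58), an inositol trisphosphate receptor, were lower. The other ryanodine receptors were close to 0, with Ryr2, the cardiac form, at 0.0075 ± 0.0049 FPKM in knockout-labelled libraries and 0.0071 ± 0.0073 FPKM in controls, and Ryr3 at 0.0364 ± 0.0149 and 0.0446 ± 0.0079 FPKM (SD, n = 3 each; edgeR adjusted p = 0.65 and 0.76).

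**Figure D5:**
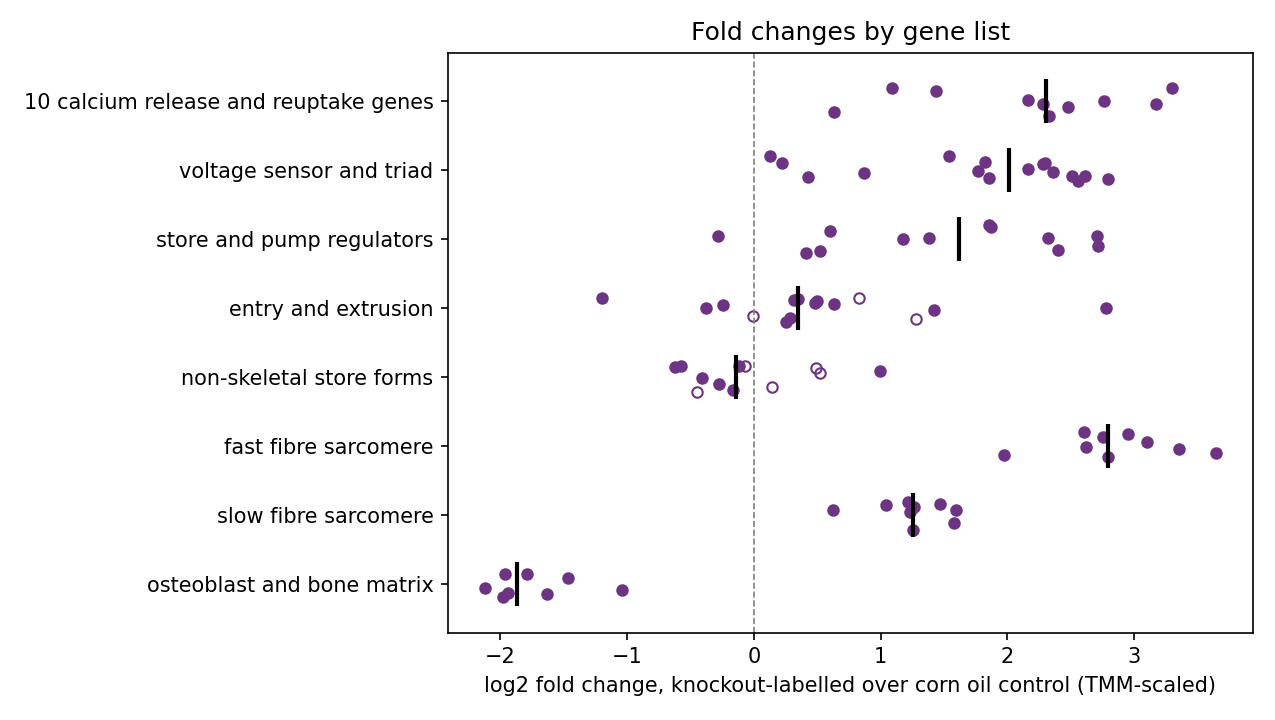
Log2 fold change (knockout-labelled over control, TMM-scaled) of each tested gene of the 10 members, the 4 wider calcium handling lists, the fast and slow sarcomere lists and the bone matrix list, with filled points past the threshold and a bar at each median. The members' median lies at 2.31, the triad list at 2.01 and store and pump regulators at 1.62. Entry and extrusion lie at 0.35 and non-skeletal store forms at -0.14. Among genes past the threshold, the signs of Sln, Tpm3 and 12 wider genes turn under at least 1 alternative.

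Markers of cardiac, smooth and regenerating muscle are given here beside the slow and cardiac forms Atp2a2, Casq2 and Sln. Their counts stand beside 28.7% of all genes tested called higher and 28.8% lower. Of 5 tested cardiac markers 3 were higher and 1 was lower, with the list at 0.0066% to 0.0067% of counts in knockout-labelled libraries and 0.0029% to 0.0037% in controls, and Nppb at 0 in all 6 libraries. Smooth muscle markers, 6 of 6 higher, held 0.0191% to 0.0194% and 0.0158% to 0.0165%, though Smtn was called lower under 5 of 12 alternatives. Markers of embryonic or regenerating muscle, 4 of 5 tested higher and 1 lower, held 0.0312% to 0.0327% and 0.0038% to 0.0039%, with Chrng at 0 in all 6 libraries. Actc1, which adult heart also expresses, led them at a log2 fold change of 5.98. It had 105 ± 2.25 FPKM in knockout-labelled libraries and 2.23 ± 0.263 FPKM in controls (SD, n = 3 each). The lower gene of this list was Myh3, a myosin gene, with a log2 fold change of -0.29 (edgeR adjusted p = 0.011). Myh3 had 2.14 ± 0.171 FPKM in knockout-labelled libraries and 3.51 ± 0.253 FPKM in controls (SD, n = 3 each). The part of these cells in the results was not tested.

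The genes whose profile over the 6 libraries lay nearest to the median profile of the 10 were Tpm1, Ak1, Padi2, Ttn and Nexn, at Euclidean distances of 0.059 to 0.079 in centred log2 CPM. Their log2 fold changes were 2.28, 2.29, 2.34, 2.28 and 2.25. With 2 groups of 3 libraries such a distance mainly measures a like difference between the groups.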

How the data were processed

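Poly(A)-selected, stranded libraries from 6 femur samples were read as paired ends, per the labels' protocols, and grouped by the treatment label. As tools, fastp, HISAT2, StringTie and RSEM, and as build GRCm39, are given in the submitters' processing notes, without roles or versions. The deposited tables give, per gene and per transcript, FPKM values computed by the authors and estimated counts. The estimated counts deposited by the authors are whole numbers that follow FPKM times length, and how they were derived is not given in the sources used here. Since many low counts were multiples of 4, a pair of reads was taken as 4 counts, or 16.4 to 18.4 M pairs in each library. Whether the counting used strand is not stated.

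Counts were rounded and tested across the whole gene and transcript tables with edgeR 4.0.16 in R 4.3.3 (filterByExpr, TMM, quasi-likelihood F test, two-sided, Benjamini-Hochberg threshold 0.05), which was tested on simulated data. Each SE of a fold change was computed from log2 CPM values (prior count 2) within the groups. That of a ratio was computed from its log2 FPKM ratios per library within the groups. Ratios within a library used FPKM and a two-sided exact permutation test (scipy 1.17.1), with 3 against 3 libraries. Alternatives were other scalings, DESeq2 1.42.0, limma 3.58.1 on log2(FPKM + 1), log2(FPKM + 0.1) and quantile-normalized values, no filter, counts divided by 4, a replicate block and leaving out each library. Limma on log2(TPM + 1) was added after the data were seen.

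The 10 genes and all lists were chosen with earlier results of these data known. Named genes are all 10 members, up to 4 genes per list by adjusted p and the 5 nearest profiles. All genes on a list's smaller side are also named where these were 5 or fewer. Transcripts are named with at least 5% of the FPKM summed over a gene's transcripts. Some genes under this rule are not reported here. Symbols of 3 list genes had no match. Coordinates of genes are GRCm39 as deposited, and sequences come from GRCm38 tables.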

Additional observations from a re-analysis of the deposited data

How the results depend on the processing

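All 10 genes passed under each of the 18 alternatives for the gene table, with the same sign except Sln with TPM (-0.14), which makes 1 member lower there. Leaving out each library gave 10 higher members in every case and 36 to 38 higher and 7 to 10 lower wider calcium genes. The share of all genes called, in either direction, was 51.9% to 53.3% without 1 library, 35.3% without the filter and 91.2% with TPM. Lower wider genes numbered 16 with library totals and with limma on log2(FPKM + 1), log2(FPKM + 0.1) and log2(FPKM + 1) without a filter, against 10; with TPM 22 were higher and 23 lower, and 1 slow sarcomere gene was lower. With the fast list as divisor the log2 ratio differences were -0.11 for Atp2a1, -0.39 for Ryr1, -0.58 for Jph1 and -0.54 for Srl, and with the slow list 0.19 for Casq2 and 0.91 for Trdn; the cause was not tested. Relative to TMM the median gene shifted by -0.42 with library totals, -0.37 with limma on log2(FPKM + 1) and -0.73 with TPM. Higher genes were 49.95% of those called with TMM, 24.6% with library totals, 24.3% with limma on log2(FPKM + 1) and 14.6% with TPM. Higher member transcripts numbered 11 to 14 without 1 library.

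Libraries of the same number correlated at 0.0293 to 0.0536 in their deviations from the group means, and each correlated best with its own number. Those of different numbers correlated at -0.041 to 0.00262. Whether libraries of the same number share more than that number was not tested. With the replicate block 10 members, 37 higher and 9 lower wider genes and 10 member transcripts passed, as did 55.6% of all genes; the long Srl transcript (adjusted p = 0.094) and the Sln transcript (adjusted p = 0.051) were lost, and with the block the smallest exact p of a ratio is 0.25. Depth limits the longer-ended Atp2a1 transcript, Ryr2 and Ryr3, which had few reads.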
